A study of Mus musculus with 2 samples.

Results

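The genes *S100a8*, *S100a9*, *Retnlg*, *Csf3r*, *Cxcr2*, *Il1r2*, *Mmp9* and *G0s2* are 8 of the 22337 gene symbols measured in cells of Bm12 heart allografts, and all are known from neutrophils. The set was chosen by its levels across the annotated cell types of these same cells, so those levels are given as a description with no test. The donor hearts were mismatched to their hosts at MHC class II through the Bm12 allele of I-A. Hearts from Bm12 donors with intact *Il33* (IL-33+, hearts 1 to 3) or from Bm12 donors bred onto Il33-/- (IL-33-, hearts 4 to 6) were placed in wild-type C57BL/6 recipients, so that in both groups the recipient's own cells kept *Il33*. Cells were taken on day 14, marked with 1 hashtag per heart, pooled and captured together, and the ages of the mice are not given in the sources used here. The comparison asks whether these transcripts in the graft differ with the IL-33 of the graft (n = 3 hearts per group).

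Neutrophils are short-lived granulocytes made in the bone marrow that enter injured tissue within hours, the transplanted heart among them. *S100a8* and *S100a9* encode the subunits of calprotectin, a calcium-binding protein that fills the neutrophil cytosol and acts as an alarm signal once released. *Csf3r* encodes the receptor for G-CSF, the cytokine that drives neutrophil production, and *Cxcr2* the chemokine receptor that draws neutrophils toward CXCL1 and CXCL2. *Il1r2* encodes a decoy receptor that binds interleukin 1 without signalling. *Mmp9* encodes gelatinase B, a matrix protease stored in granules, *Retnlg* a small secreted protein of the resistin family, and *G0s2* an inhibitor of the lipase ATGL. Neutrophils hold little RNA and sediment apart from mononuclear cells in density gradients. The cells sequenced here were the interphase of such a gradient, and the authors kept cells with at least 1500 counts, so the number of neutrophils sequenced is not their number in the graft.

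The genes lie at separate places in the genome apart from the S100 pair. By RefSeq on GRCm38, *S100a8* lies on the plus strand of chromosome 3 from 90669071 to 90670034 and *S100a9* on the minus strand from 90692630 to 90695721, with 22595 bases between them. *Il1r2*, *Cxcr2* and *G0s2* are on chromosome 1, *Mmp9* on chromosome 2, *Csf3r* on chromosome 4 and *Retnlg* on chromosome 16. Promoter sequences were held for 7 of the 8 genes, and those of the calprotectin pair, *Retnlg* and *Csf3r* are shown because these genes were read in the same cells. Each run is the 250 bases before the transcript start that the RefSeq promoter table uses (GRCm38.p6), in the direction of transcription, at chr3:90668821-90669070 (*S100a8*, plus), chr3:90695722-90695971 (*S100a9*, minus), chr16:48872358-48872607 (*Retnlg*, plus) and chr4:126024409-126024658 (*Csf3r*, plus). The run of *Csf3r* lies inside the span of its gene, which RefSeq begins at 126023441, so its positions count from a start within that span. Capitals mark the letters of a TATA box (TATAAA), of a core of the PU.1 site (GAGGAA) or of a C/EBP site (TTNNGCAA), on either strand.
S100a8: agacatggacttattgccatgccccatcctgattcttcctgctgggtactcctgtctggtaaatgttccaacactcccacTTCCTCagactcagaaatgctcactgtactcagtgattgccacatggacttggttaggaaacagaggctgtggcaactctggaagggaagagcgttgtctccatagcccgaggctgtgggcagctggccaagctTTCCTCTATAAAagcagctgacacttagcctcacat
S100a9: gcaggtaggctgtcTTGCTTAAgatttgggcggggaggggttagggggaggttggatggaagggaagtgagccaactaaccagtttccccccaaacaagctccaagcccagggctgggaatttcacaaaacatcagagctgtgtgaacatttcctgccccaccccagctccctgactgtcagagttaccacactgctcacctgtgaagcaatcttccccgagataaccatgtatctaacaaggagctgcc
Retnlg: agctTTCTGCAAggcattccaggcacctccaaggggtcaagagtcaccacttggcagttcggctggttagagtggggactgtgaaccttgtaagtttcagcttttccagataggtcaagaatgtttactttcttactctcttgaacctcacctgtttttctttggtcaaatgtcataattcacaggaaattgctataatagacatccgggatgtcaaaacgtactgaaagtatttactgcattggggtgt
Csf3r: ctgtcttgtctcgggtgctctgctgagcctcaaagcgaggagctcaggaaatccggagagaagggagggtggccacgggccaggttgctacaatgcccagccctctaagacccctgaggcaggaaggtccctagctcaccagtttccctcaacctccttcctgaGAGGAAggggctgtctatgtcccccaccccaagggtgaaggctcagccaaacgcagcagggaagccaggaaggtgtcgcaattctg
*S100a8* held TATAAA at bases -30 to -25 from the start, directly beside a GAGGAA on the minus strand at -36 to -31, and a further GAGGAA at -170 to -165. *Csf3r* held GAGGAA at -86 to -81, and *Cxcr2*, whose sequence is not shown, at -81 to -76. The C/EBP letters stood at -236 to -229 in *S100a9* and at -246 to -239 in *Retnlg*. Of the 7 promoters, 1 held TATAAA, 3 held GAGGAA and 2 held TTNNGCAA, while 12.4%, 23.3% and 9.56% of 32851 promoters of the same length held them. The letters are a description of the sequence and not of binding.

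A total of 4441 cells was deposited with 14 annotated types, 2762 cells from IL-33+ and 1679 from IL-33- grafts, and no type was named for neutrophils. A heart gave 230 to 1666 cells and 908138 to 7012961 unique molecular identifiers (UMIs, each standing for 1 captured transcript), and a cell had 1500 to 14977 UMIs. No cell barcode was repeated. *Il33* itself was read in fibroblasts of both groups, at 24.3, 0 and 50.7 CPM in hearts 1 to 3 and 32.6, 73.8 and 16.1 CPM in hearts 4 to 6 (7, 0, 121, 9, 3 and 5 UMIs). The groups overlapped and an IL-33- heart was highest. Where these 3′ reads lie relative to the deleted part is not given in the sources used here, so they check neither label. The replicates are separate hearts, and levels are means over cells in CPM (counts scaled to the same total in each cell), which do not tell the number of cells from the RNA per cell when all cells of a heart are averaged.

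All 8 genes had their highest mean level in cells annotated as Mo-DCs (monocyte-derived dendritic cells, n = 204). The calprotectin genes were at 7118 CPM (*S100a8*) and 5855 CPM (*S100a9*) in Mo-DCs, and these cells held 88.0% and 88.3% of all their UMIs. The next type was monocytes for *S100a8* (138 CPM) and cDCs for *S100a9* (104 CPM). *Retnlg* was at 1246 CPM in Mo-DCs, which held 90.5% of its UMIs, against 18.4 CPM in Tregs, the next type. *Mmp9* (247 CPM, 74.6% of UMIs) and *Cxcr2* (88.6 CPM, 58.1% of UMIs) showed the same order, with no other type above 8.70 CPM for *Mmp9* or 5.00 CPM for *Cxcr2*. For these 5 genes Mo-DCs were the leading type by a wide margin, although *Cxcr2* rested on 74 UMIs in the whole series. In *S100a9* and *Retnlg* the lowest of the 6 hearts in Mo-DCs lay above the highest in the next type, whereas for the other 6 genes the hearts of the first and second type overlapped. For *S100a9* this did not hold against macrophages, the third type, whose highest heart (1210 CPM) lay above the lowest Mo-DC heart (536 CPM). Within hearts, Mo-DCs were above the second type in 6 of 6 hearts for *S100a8*, *S100a9*, *Retnlg* and *Csf3r* and in 4 of 6 for the other 4 genes.

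*G0s2* was found in a second place. Its level was 578 CPM in Mo-DCs and 64.0 CPM in fibroblasts, and these types held 56.1% and 34.5% of its 371 UMIs. Of 375 fibroblasts, 48 had a *G0s2* UMI (12.8%, or 5.33% after each cell was thinned to 1500 UMIs), against 0.893% of 3025 lymphocytes (0.331% thinned). Lymphocytes here and below are 8 annotated types and leave out unconventional T cells. Fibroblasts with a *G0s2* UMI were found in the 4 hearts with at least 30 fibroblasts, at 13%, 14.7%, 12.9% and 13.3% in hearts 3, 1, 4 and 6, and in none of the 6 and 4 fibroblasts of hearts 2 and 5. A single fibroblast held 46 of the 128 UMIs.

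*Csf3r* and *Il1r2*, the receptor genes of the set that bind cytokines, were spread over the myeloid types and were also read in unconventional T cells. *Csf3r* averaged 297 CPM over Mo-DCs, with monocytes (93.4 CPM) and macrophages (63.3 CPM) next, and macrophages held more of its UMIs (37.3%) than Mo-DCs (26.1%). *Il1r2* averaged 653 CPM over Mo-DCs, with cDCs (416 CPM), monocytes (267 CPM) and macrophages (211 CPM) next and with 13.1% of its UMIs in Mo-DCs. A *Csf3r* UMI was seen in 44.2% of monocytes and 29.6% of macrophages (14.3% and 7.69% thinned), against 0.595% of lymphocytes (0.331% thinned). An *Il1r2* UMI was seen in 53.9% of monocytes, 49.7% of cDCs and 40.1% of macrophages, against 4.10% of lymphocytes. At an equal depth of 1500 UMIs these *Il1r2* shares were 26.0%, 28.1% and 20.3%, near the 26.0% of Mo-DCs, and 2.02% in lymphocytes. Unconventional T cells, not counted among the lymphocytes, had *Il1r2* at 196 CPM and in 42.2% of cells (18.1% thinned). *Csf3r* was at 37.9 CPM there and in 24.1% of cells (3.61% thinned). In both orders the range over hearts of each type overlapped that of the next. Within hearts, *Il1r2* was higher in monocytes than in macrophages in 6 of 6 hearts, while it was higher in Mo-DCs than in cDCs, and *Csf3r* in monocytes than in macrophages, in 4 of 6.

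**Figure D1:**
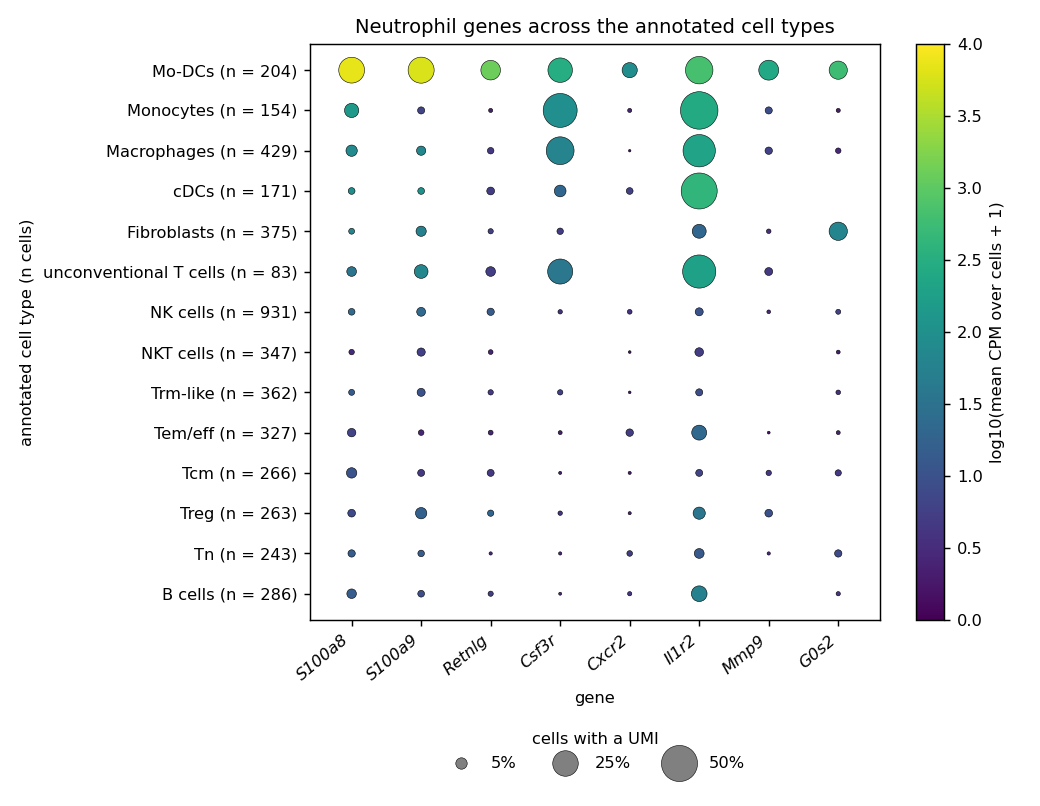
Mean level and detection of the 8 genes in the 14 annotated types. Colour gives log10 of the mean CPM over cells plus 1, and the area of a point the percentage of cells with a UMI. All 8 genes peak in Mo-DCs (n = 204 cells), while *Csf3r* and *Il1r2* also reach 44.2% and 53.9% of monocytes and *G0s2* reaches 12.8% of fibroblasts.

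Outside Mo-DCs the calprotectin reads came from few cells. In fibroblasts 1 cell held 155 of 174 *S100a8* UMIs, in cDCs 1 cell held 60 of 62, in macrophages 1 cell held 88 of 139 and in monocytes 1 cell held 80 of 127. The remaining detections were at the level of lymphocytes: after thinning, 1.17% of macrophages and 1.17% of cDCs had an *S100a8* UMI, against 0.992% of lymphocytes (median depths 6606, 6544 and 3181 UMIs), and such shares are read as background. Monocytes stood at 2.60% thinned (7.79% unthinned) and Mo-DCs at 24.5% (25.5% unthinned, 95% exact interval 19.7 to 32% for counting error only, median depth 2310 UMIs). Mo-DCs held 1.25 *S100a8* UMIs per *S100a9* UMI (0.618 to 3.17 over hearts), macrophages 1.18 and cDCs 0.873. Monocytes were apart, with 127 *S100a8* UMIs and 5 *S100a9* UMIs. Of those, 83 and 3 came from heart 3 and 33 and 1 from heart 6.

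Within Mo-DCs the genes were held together by a minority of cells. Of 204 Mo-DCs, 113 had a UMI of none of the 8 genes and 36 of a single gene, while 46 had at least 4 and 34 at least 5. Only 3 cells had 2 and 6 cells had 3 of the genes, just under the limit of 4, and 12 cells had exactly 4. *S100a8* and *S100a9* were read together in 48 of the 52 Mo-DCs with *S100a8*, and in 5 of the 152 without it an *S100a9* UMI was seen. Cells with at least 4 of the genes held 99.7% of the *S100a8* UMIs of Mo-DCs and all 150 *Mmp9* UMIs. Among those 46 cells *S100a8* was seen in 45, *S100a9* in 44, *Il1r2* in 40, *Csf3r* in 36, *Mmp9* in 31, *Retnlg* in 25, *G0s2* in 20 and *Cxcr2* in 15. By this split, which was made on the 8 genes themselves, the Mo-DC means of *Il1r2* and *Csf3r* were mixtures. *Il1r2* averaged 2513 CPM in the 46 cells and 112 CPM in the other Mo-DCs, and *Csf3r* 1152 and 48.5 CPM. A further 10 cells with at least 4 of the genes were annotated as other types: 3 macrophages, 2 fibroblasts, 2 NK cells, 1 monocyte, 1 cDC and 1 unconventional T cell, and 5 of these 10 also held at least 2 markers of T cells, NK cells or B cells. None of the 46 Mo-DCs did. No doublet caller was run, and the authors set upper limits on counts and genes per cell.

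**Figure D2:**
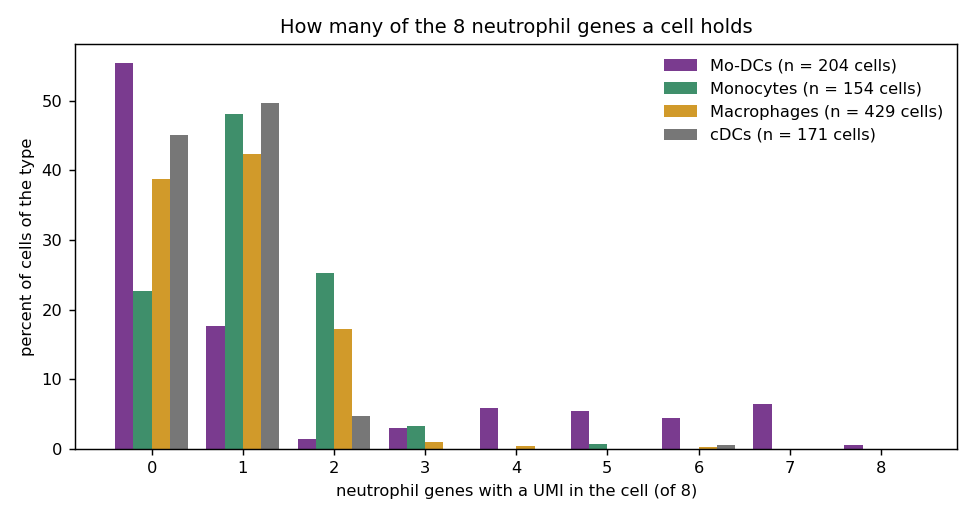
Percentage of the cells of 4 annotated myeloid types that held a UMI of 0 to 8 of the genes. Mo-DCs fall into cells with none or 1 (149 of 204) and cells with at least 4 (46 of 204), whereas the other types stay mostly at 0 to 2.

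The Mo-DCs that held at least 4 of the genes differed from the other 158 in genes outside the set as well. These are descriptions, since the cells were selected on the 8 genes. Of 18 surface and mature-neutrophil genes, the median cell with at least 4 held 8 and the median other Mo-DC 1. *Mxd1*, *Msrb1* and *Clec4e*, those with the most UMIs in the series, were seen in 89.1%, 82.6% and 54.3% of the former and in 36.7%, 24.1% and 29.7% of the latter. Markers of macrophages went the other way, with a mean of 0.826 of 9 genes against 2.70, as did dendritic cell markers with 1.20 of 9 against 1.96. Monocyte markers were at 0.783 of 7 against 1.13. The 18 surface and mature-neutrophil genes were also read in other myeloid types. The median monocyte held 5 of them and the median macrophage 3, at median depths of 6709 and 6606 UMIs. Over all cells of a type, *Msrb1* and *Clec4e* were highest in monocytes, at 547 and 716 CPM against 444 and 432 CPM in Mo-DCs. The annotation joined cells rich in neutrophil genes with cells richer in macrophage and dendritic cell genes under the same name. The former were also shallower (median 1916 against 2386 UMIs) and had a lower mitochondrial share (median 1.77% against 5.01%). Of the 46 cells, 27 (58.7%) had fewer than 2000 UMIs, against 33.5% of the other Mo-DCs and 9.80% of all cells, so many lay close to the lower limit of 1500 counts, and how many fell under it was not tested.

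The 46 cells did not look alike in all hearts. They came from all 6 hearts, with 3, 1 and 27 cells in IL-33+ hearts 1 to 3 and 12, 2 and 1 in IL-33- hearts 4 to 6. The 27 cells of heart 3 had a median *S100a8* level of 5747 CPM (0 to 128578 CPM), and the 12 cells of heart 4 a median of 77263 CPM (845 to 158452 CPM). *Retnlg* followed the same order with means of 2613 and 12960 CPM. *G0s2* went the other way, at a mean of 3689 CPM in heart 3, where 16 of 27 cells had a UMI, and 51.9 CPM in heart 4, where 2 of 12 did. The single cell of heart 6, also an IL-33- graft, was at 9723 CPM for *G0s2* and 7900 CPM for *S100a8*, like the cells of heart 3. The difference between hearts 3 and 4 is 1 heart against 1 heart and carries no test.

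Genes of neutrophil granules separated the same cells. Of 12 genes of primary and secondary granules, *Camp*, which encodes the antimicrobial cathelicidin, and *Ngp*, which encodes neutrophilic granule protein, were each seen in 7 of the 46 cells, and 5 of the 7 *Camp* cells and 6 of the 7 *Ngp* cells came from heart 4. Of the 682 *Camp* UMIs in the 46 cells, 645 were from heart 4. *Ltf*, the gene of lactoferrin, added after its values were seen, gave 409 of 476 UMIs in heart 4. The 9 cells with *Ltf*, *Camp* or *Ngp* had a median of 121281 CPM of *S100a8*, and 2 of them had a *G0s2* UMI. *Pglyrp1*, a peptidoglycan-binding protein with the most UMIs of this list, was broader, with a UMI in 60.9% of the 46 cells and 155 CPM in Tregs. The primary granule genes *Mpo*, *Elane*, *Prtn3* and *Ctsg* were at 0 UMIs in all 46 cells. *Ly6g*, which encodes the antigen commonly used to sort mouse neutrophils and was also added after its values were seen, was detected in 6 of the 46 cells, all of heart 4. The 12 cells of heart 4 were deeper than the 27 of heart 3 (median 2612 against 1889 UMIs). Detection of the granule genes and *Ly6g* was not compared at equal depth.

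**Figure D3:**
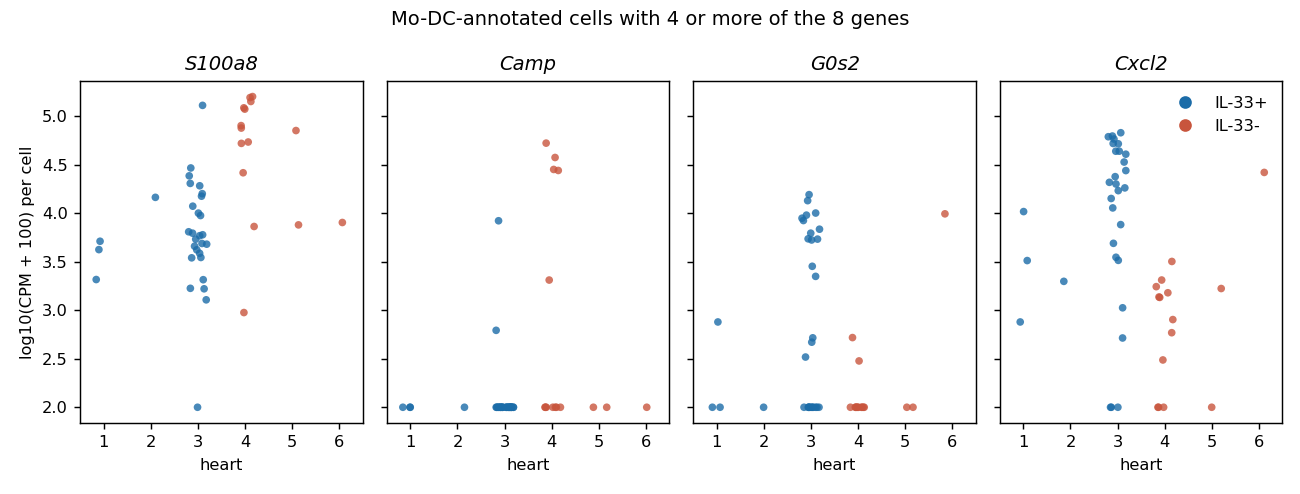
Level of 4 genes in each of the 46 Mo-DCs with at least 4 of the 8 neutrophil genes, by heart, as log10 of CPM plus 100. Each point is a cell, and points at 2.0 are cells with no UMI. Cells of heart 4 are high in *S100a8* (median 77263 CPM) and hold most *Camp*, while cells of heart 3 (median 5747 CPM *S100a8*) hold most *G0s2* and *Cxcl2*.

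The ligands of these receptors were found in part in other cells. *Cxcl1*, a CXCR2 ligand, was highest in fibroblasts at 2233 CPM (1240 to 2947 CPM over hearts) and at 165 CPM in Mo-DCs. *Cxcl2* was highest in Mo-DCs at 5989 CPM (1027 to 9064 CPM over hearts), followed by unconventional T cells at 1850 CPM. In the 46 cells *Cxcl2* averaged 25333 CPM in heart 3 and 999 CPM in heart 4, the order of *G0s2* rather than of *S100a8*. *Cxcl3* was highest in macrophages (122 CPM), and *Csf3*, the gene of G-CSF, gave 64 UMIs in the series. On the interleukin 1 side, *Il1b* (1426 CPM) and its antagonist *Il1rn* (942 CPM) were highest in Mo-DCs, the type that also led for the decoy receptor *Il1r2*, whereas the signalling receptor *Il1r1* was highest in fibroblasts (146 CPM against 5.42 CPM in Mo-DCs). The inhibitors of MMP9, *Timp1*, *Timp2* and *Timp3*, were also highest in fibroblasts, at 197, 1139 and 972 CPM. *Tlr4*, a receptor for calprotectin, was at 35.8 CPM in monocytes and 25.5 CPM in Mo-DCs, and *Ager* gave 21 UMIs in all. *Retnla*, a relative of *Retnlg*, was at 45.4 CPM in the 46 cells and 970 CPM in the other Mo-DCs, while *Retn* gave 7 UMIs and *Pnpla2*, which encodes the lipase that G0S2 inhibits, was highest in NK cells (56.1 CPM).

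Over the 79 pairs of a type and a heart with at least 5 cells, the genes whose log2 level (mean CPM plus 10) tracked the mean of the 8 best were *Wfdc21* (Pearson r = 0.848), *Padi4* (0.842), *Fpr2* (0.815), *Lcn2* (0.81), *Clec5a* (0.802), *Hcar2* (0.79), *Ptgs2os2* (0.77), *1600010M07Rik* (0.747), *Pram1* (0.744) and *Lrg1* (0.739). The pairs share hearts and cell types, so these values carry no p. Within the set, each gene against the mean of the others gave r from 0.527 (*Il1r2*) and 0.53 (*G0s2*) to 0.854 (*S100a8*) and 0.881 (*S100a9*). *Padi4* encodes the enzyme that citrullinates histones in neutrophil extracellular traps, *Fpr2* a formyl peptide receptor and *Lcn2* the iron-scavenging lipocalin of secondary granules. All 10 genes had a higher mean in the 46 cells than over all Mo-DCs, which include them, for instance *Lcn2* with 2333 against 529 CPM. The genes were picked for tracking the 8 and the cells for holding them, so this order was largely given in advance.

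In Mo-DCs, *S100a8* was lower in IL-33+ than in IL-33- grafts by the model fitted over all genes, but the hearts of the groups overlapped and the difference did not exceed the spread between hearts. The mean *S100a8* level was 329, 3606 and 3162 CPM in IL-33+ hearts 1 to 3 and 35293, 11168 and 482 CPM in IL-33- hearts 4 to 6. Hearts 4 and 5 were above all IL-33+ hearts and heart 6 was below hearts 2 and 3. The log2 fold change (IL-33+ over IL-33-, of mean CPM plus 10) was -1.88 with an SE of 0.42 (limma, adjusted p = 0.0122 over 5698 genes). That SE was drawn from the trend of all genes of this level. The residual SD of *S100a8* between hearts of a group was 2.63 on the log2 scale, which alone would give an SE of 2.15, and the two-sided exact permutation test over hearts gave p = 0.4 (smallest possible 0.1). Leaving out heart 4 moved the log2 fold change to -0.58 (limma, adjusted p = 1.0), and the call was also lost without heart 1 (-0.77), heart 2 (-2.48) or heart 5 (-1.41) and without hearts of fewer than 10 Mo-DCs (-2.01). Leaving out heart 6 moved it the other way, to -3.66 (limma, adjusted p = 3.86e-10). The call was lost with a pseudocount of 1 CPM, without the trend and with limma-voom, so that 7 of 15 alternatives kept it. Hearts 2 and 5 held 4 and 7 Mo-DCs, and all 23 *S100a8* UMIs of heart 2 lay in 1 cell.

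The other 7 genes were not called in Mo-DCs. *S100a9* was at 559, 3606 and 3134 CPM against 27826, 3325 and 536 CPM, and its log2 fold change was -0.99 (SE 0.42, limma, adjusted p = 1.0). *Retnlg* was at 321, 784 and 646 CPM against 5554, 1272 and 184 CPM (log2 fold change -1.0, SE 0.47). Both showed the order of *S100a8*, with heart 4 highest and heart 1 or 6 lowest. Without heart 6 both were called (limma, adjusted p = 0.00129 for *S100a9* and 0.00606 for *Retnlg*), and without heart 4 both turned to the other direction (0.47 and 0.16), so that a single heart decided them. For *Mmp9* the hearts were at 113, 0 and 199 CPM against 814, 0 and 71.5 CPM (log2 fold change -0.46), and for *Cxcr2* at 87.2, 0 and 63.2 CPM against 242, 150 and 0 CPM (-0.83). A mean of 0 in a heart with 4, 7 or 17 Mo-DCs says little of the gene. *G0s2* was at 51.3, 0 and 934 CPM against 93.1, 0 and 572 CPM (-0.02), high in 1 heart of each group. *Csf3r* was at 242, 627 and 289 CPM against 455, 125 and 205 CPM (0.61, SE 0.58), and *Il1r2* at 504, 941 and 598 CPM against 1423, 313 and 143 CPM (0.69, SE 0.51). The groups overlapped for all 8 genes.

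Of all 5698 genes tested in Mo-DCs, 4 were called (0.0702%), of which *S100a8* was the only member of the set. At an unadjusted p of 0.05 or less, 3 of the 8 genes were lower in IL-33+ grafts (*S100a8*, *S100a9* and *Retnlg*), as were 1.77% of all genes tested, and these 3 were held by the same cells. The median log2 fold change was -0.65 over the 8 genes and -0.01 over all genes tested, but the direction of the former rested on single hearts, being 0.20 without heart 2, 0.31 without heart 4 and -1.39 without heart 6. The other called genes were the chemokine genes *Ccl2* (log2 fold change -2.85, limma, adjusted p = 0.00196) and *Ccl8* (3.36, 0.000308) and *Chil3*, from the list of monocyte markers (-3.83, 0.000308). *Chil3* was at 142, 0 and 38.2 CPM against 858, 440 and 528 CPM, with no overlap, *Ccl2* did not overlap either, and *Ccl8* overlapped through heart 6 (1062 CPM). The summed level of the 7 monocyte markers was 524 to 1023 CPM in IL-33+ and 1309 to 2260 CPM in IL-33- Mo-DCs. That sum includes the called *Chil3*, which gave 142 of the 1023 CPM of heart 1 and 528 of the 1309 CPM of heart 6. Without *Chil3*, heart 1 would lie above heart 6, so the separation of the groups by this sum rests on that gene. *Chil3* averaged 635 CPM in the 46 cells with at least 4 of the genes (120 UMIs) and 104 CPM in the other Mo-DCs (48 UMIs). The part of cell content in the levels above was not tested. The summed level of the 16 neutrophil markers, which include the 8 genes, was 3147 to 12027 CPM in IL-33+ and 3136 to 74328 CPM in IL-33- hearts, with none of the 16 at 0. Heart 4, the highest for *S100a8*, was also the highest for the summed level of 3 erythroid markers in Mo-DCs, at 18630 CPM against 94.0 to 6740 CPM in the other hearts, and its part in the levels was not tested.

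**Figure D4:**
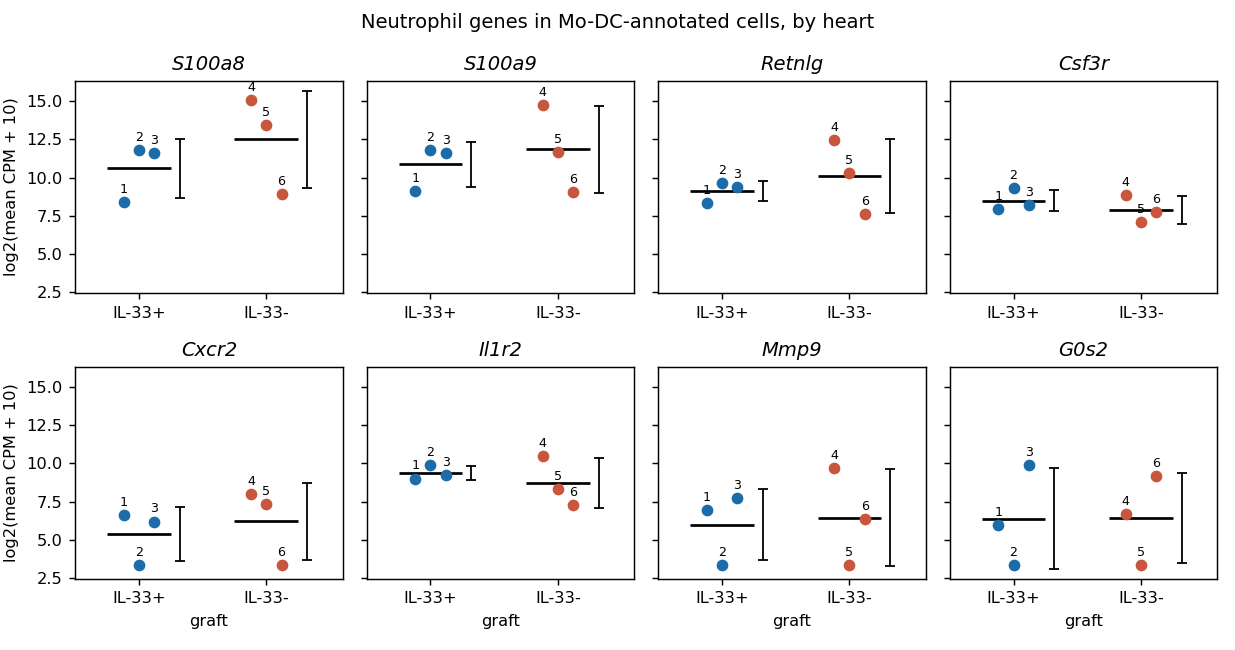
Levels of the 8 genes in Mo-DCs by heart, as log2 of the mean CPM plus 10. Numbers name the hearts, black lines are group means and error bars SDs (n = 3 hearts per group). The groups overlap for every gene, and heart 4 is highest for *S100a8* (35293 CPM), *S100a9*, *Retnlg*, *Cxcr2*, *Il1r2* and *Mmp9*.

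The share of Mo-DCs with at least 4 of the genes did not separate the groups either. It was 8.11% (3 of 37, 95% exact interval 1.70 to 21.9%), 25% (1 of 4) and 24.3% (27 of 111, 16.7 to 33.4%) in IL-33+ hearts, and 42.9% (12 of 28, 24.5 to 62.8%), 28.6% (2 of 7) and 5.88% (1 of 17, 0.149 to 28.7%) in IL-33- hearts. The lowest and the highest heart were both IL-33-. The means were 19.1% ± 9.56 (SD, n = 3) and 25.8% ± 18.6 (SD, n = 3), with a two-sided exact permutation p of 0.6. Of all cells of a heart, those with at least 4 of the genes made up 0.462%, 0.435% and 1.92% in IL-33+ and 1.79%, 1.06% and 0.179% in IL-33- hearts (means 0.939% ± 0.850 and 1.01% ± 0.809, SD, n = 3, exact permutation p = 1.0). Of the 6 hearts, 4 held 1 to 3 such Mo-DCs, and with 3 against 3 hearts the smallest p of this test is 0.1, so that it could not pass 0.05 for any difference.

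Over all cells of a heart no gene was called among 14407 tested (0%, limma), and 574 had an unadjusted p of 0.05 or less, none of them in the set. Limma-voom and limma without the trend called none either. *S100a8* was at 24.5, 68.9 and 243 CPM in IL-33+ and 1223, 378 and 30.1 CPM in IL-33- hearts (log2 fold change -1.60, SE 1.12, adjusted p = 0.941). *G0s2* was at 5.09, 1.48 and 77.2 CPM against 6.73, 2.86 and 23.6 CPM (0.35, SE 0.69). The median over the 8 genes was -0.15 on the log2 scale and that of all genes 0.01.

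In macrophages the receptor gene *Csf3r* was lower in every IL-33+ heart than in any IL-33- heart. It was at 51.0, 26.5 and 55.6 CPM in IL-33+ and 75.9, 142 and 88.4 CPM in IL-33- hearts, each mean resting on 10 to 192 cells. The log2 fold change was -1.05 (SE 0.36) with an unadjusted p of 0.00847 and an adjusted p of 0.987 (limma, 9683 genes), and the exact permutation p was 0.1, the smallest that 3 against 3 hearts allow. Of all genes tested in macrophages, 5.15% did not overlap and were lower in IL-33+ hearts, and *Csf3r* was 1 of the 5 members tested. Of 41 tests of a member in a type over the 14 types, 2 did not overlap between groups, against 9.82% of all tests of a gene in a type. The other of the 2 was *Il1r2* in NKT cells, at 5.94, 12.1 and 7.24 CPM in IL-33+ and 1.69, 0 and 1.44 CPM in IL-33- hearts (limma, adjusted p = 0.924). The direction of *Csf3r* in macrophages held in all 15 alternatives (-1.22 to -0.68), none of which called it. Because its groups did not overlap, leaving out a heart or changing the pseudocount could not have turned that direction. *Il1r2* in macrophages was at 256, 202 and 184 CPM against 140, 258 and 165 CPM (log2 fold change 0.21). *S100a8* and *S100a9* in macrophages were set by heart 5 (1296 and 1210 CPM), where 1 of 21 macrophages held at least 4 of the genes. No gene at all was called in macrophages (0%, limma, 391 at an unadjusted p of 0.05 or less, none by limma-voom).

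In monocytes 3 of the 8 genes passed the filter on low counts and none was called, while 1 of 7123 genes was (0.0140%, *Cxcl9*). *Csf3r* was at 95.9, 83.0 and 120 CPM against 70.0, 0 and 165 CPM (log2 fold change 1.06, SE 0.64), where the 0 was from the 7 monocytes of heart 5, and without heart 5 it was -0.12. *Il1r2* was at 271, 207 and 266 CPM against 229, 510 and 233 CPM (-0.28, SE 0.33). *S100a8* was at 17.7, 0 and 1033 CPM against 0, 0 and 364 CPM (0.98, SE 1.00). The direction of *Csf3r* in monocytes was the reverse of that in macrophages, and the difference between these types was not tested. The change between graft groups in Mo-DCs minus that in monocytes was tested within hearts for 5390 genes and called none (0%, limma, 200 at an unadjusted p of 0.05 or less, 1 called by limma-voom). It was -2.86 (SE 4.18) for *S100a8*, -0.45 (SE 1.16) for *Csf3r* and 0.97 (SE 1.05) for *Il1r2* on the log2 scale.

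In NK cells, 1.07% of which had an *S100a8* UMI after thinning, 5 of the 8 were tested and all 5 were lower in IL-33+ grafts without a call (0% of 9565 genes, limma, 557 at an unadjusted p of 0.05 or less). Of all genes tested in NK cells, 48.9% were lower in IL-33+ grafts. *S100a8* was at 0, 11.4 and 13.5 CPM against 124, 30.5 and 2.24 CPM (log2 fold change -1.24, adjusted p = 0.846) and *S100a9* at 2.41, 0 and 17.6 CPM against 98.6, 24.8 and 7.08 CPM (-1.41, adjusted p = 0.785). These 2 had an unadjusted p of 0.05 or less, as 2.56% of all genes did while lower in IL-33+ grafts, and both overlapped between groups. A single NK cell held 33 of the 70 *S100a8* UMIs, and a single one 32 of the 77 *S100a9* UMIs, so the direction rested on few cells.

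**Figure D5:**
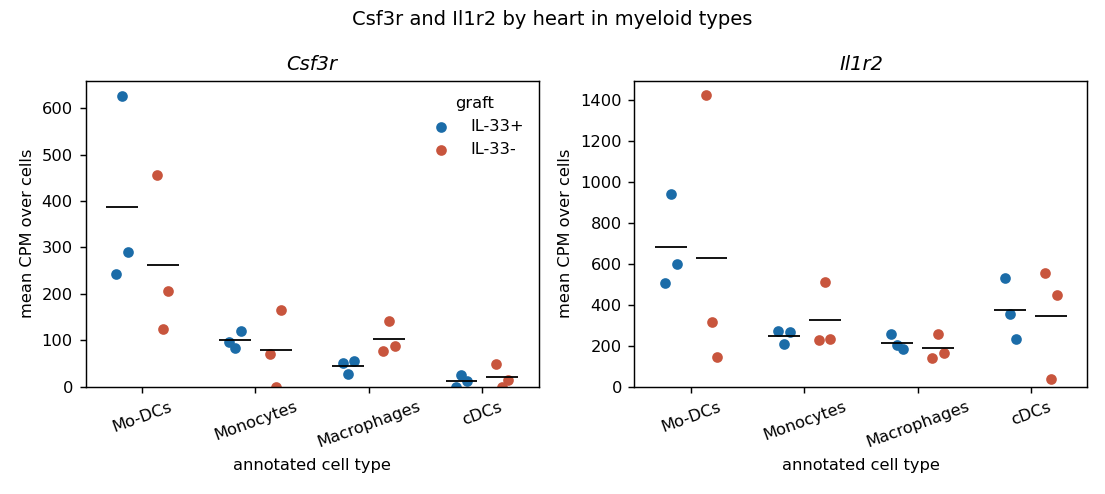
Mean CPM of *Csf3r* and *Il1r2* over the cells of 4 myeloid types, by heart. Points are hearts, black lines group means (n = 3 hearts per group). In macrophages *Csf3r* is at 26.5 to 55.6 CPM in IL-33+ and 75.9 to 142 CPM in IL-33- hearts, while for *Il1r2* the groups overlap in every type.

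None of the ligand, receptor, inhibitor and granule genes around the set passed the adjusted threshold between graft groups in Mo-DCs, in monocytes, in macrophages or over all cells. Of the 12 granule genes, 6 were tested in Mo-DCs, 5 of them lower in IL-33+ grafts, as were 50.5% of all genes tested there. The median log2 fold change of the 6 was -1.40 against -0.01 for all genes. *Ngp*, for instance, was at -1.80 (SE 1.12) and *Pglyrp1* at 0.49 (SE 0.64). In Mo-DCs with at least 4 genes of the set, heart 4 gave 620 of 785 *Ngp*, 409 of 476 *Ltf* and 317 of 416 *Lcn2* UMIs. The direction of the granule genes without heart 4 was not tested. In monocytes all 4 granule genes tested were higher (median 0.87). In macrophages 2 were higher and 2 lower, and over all cells 1 was higher and 8 lower. Of the 18 surface and mature-cell genes 15 were tested in Mo-DCs, 10 of them higher and 5 lower, with a median of 0.27. Examples were *Mxd1* at 0.69 (SE 0.52), *Clec4e* at 0.27 (SE 0.53) and *Msrb1* at 0.27 (SE 0.54). Of the interleukin 1 genes 3 were higher and 1 lower in Mo-DCs, with *Il1b* at 1.66 (SE 0.47, limma, adjusted p = 0.23) and *Il1rn* at 0.95 (SE 0.46, adjusted p = 1.0). In monocytes all 4 tested were lower, with *Il1b* at -0.85 (SE 0.49) and *Il1rn* at -0.91 (SE 0.33), while in macrophages 4 were higher and 1 lower. The chemokine genes *Cxcl1* and *Cxcl2* were at 0.91 (SE 0.68) and 0.57 (SE 0.42) in Mo-DCs and at -0.74 (SE 0.39) and -0.26 (SE 0.41) in macrophages, where *Cxcl3* was at -2.06 (SE 0.50, adjusted p = 0.813). The MMP9 inhibitors were at 0.58 (*Timp1*), 0.35 (*Timp2*) and 0.52 (*Timp3*) over all cells of a heart, where all 3 were higher in IL-33+ grafts and none was called. In macrophages *Timp1* was higher (0.75) and *Timp2* (-0.25) and *Timp3* (-0.65) were lower, and in Mo-DCs and monocytes 1 was higher and 1 lower. Fibroblasts, where these genes were highest, made up 270 of the 1666 cells of heart 3 and at most 34 cells of any other heart. The part of fibroblast number in the values over all cells was not tested.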

How the data were processed

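Cells of 6 Bm12 heart allografts were sequenced with the 10x Genomics 3′ kit after hashtag labelling. Per the labels and the study's methods, the authors aligned reads with Cell Ranger to mm10, kept cells with at least 1500 counts and under an upper limit, and used Partek Flow 10.0.23.0425. The authors deposited log2(CPM + 1) values per gene and cell, with an annotation of cell type and hashtag. How hashtags were assigned to cells is not given in the sources used here. The value of 1 UMI in each cell was taken as its commonest value above 0, and 99.94% of low values lay within 0.05 of a whole UMI. In 20 symbols a share of the low values lay off a whole UMI, and none of these symbols is described here.

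The 8 genes, the gene lists, the markers and the tests were chosen with earlier results of these data known. For every heart and type the mean CPM of the cells was taken, a pseudocount of 10 CPM was used on the log2 scale, and 3 against 3 hearts were compared by limma 3.58.1 (lmFit, eBayes with trend) in R 4.3.3. Genes needed at least 10 UMIs and a UMI in at least 3 hearts and were called where the p adjusted by Benjamini and Hochberg over all genes was at most 0.05. For shares and single values the hearts were permuted exactly (two-sided). Fits were tested on simulated data with the same setting of spread between hearts for every gene. That setting did not copy the uneven spread of *S100a8* in Mo-DCs, so it does not bear on that call. Intervals cover counting error only. Named genes are the 8 members, the 3 genes with the most UMIs of each list, the 10 genes most correlated with the members, and genes called in Mo-DCs, and exceptions are stated. Promoters are from RefSeq (GRCm38.p6). Python 3.11.15, numpy 2.4.6, pandas 2.3.3, scipy 1.17.1 and matplotlib 3.10.9 were used. Alternatives changed the pseudocount, filter, averaging, scaling, limma method, limit of genes per cell, depth, cells with lymphocyte markers and the hearts used.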

Additional observations from a re-analysis of the deposited data

How the results depend on the processing

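No paired analysis was possible because hearts carry numbers 1 to 3 in one group and 4 to 6 in the other. Values below are log2 fold changes (IL-33+ over IL-33-) or counts of called genes, and where a cause is not shown by how a setting is built, the cause was not tested. *S100a8* in Mo-DCs stayed lower in all 15 alternatives and was called in 7. Hearts 2 and 5 held 4 and 7 Mo-DCs, which limits every value in that type, and *Cxcr2* rests on 74 UMIs.

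In Mo-DCs 0 genes were called without the trend, by limma-voom and with hearts of at least 10 cells. In monocytes 0 were called with a pseudocount of 1, without the filter, without the trend and with hearts of at least 10 cells, against 8 with a pseudocount of 50 and 2 without cells with lymphocyte markers. Median-centring called 1 in macrophages, and limma-voom 1 for the difference between types. The median of the members in macrophages was -0.058 without the filter and -0.307 by limma-voom. With hearts of at least 10 cells, *Csf3r* (-0.202) and *Cxcr2* (0.748) turned in Mo-DCs, as did *Csf3r* (-0.012) and *Il1r2* (0.21) in monocytes. *G0s2* in Mo-DCs turned with a pseudocount of 50 (0.054) and limma-voom (0.775), *Mmp9* over all cells without cells with lymphocyte markers (0.096), and *Mmp9* in macrophages with a pseudocount of 1 (0.272) and median-centring (0.027). The difference between types turned for *Csf3r* with a pseudocount of 50 (0.073) and for *Il1r2* by limma-voom (-0.179). The difference in the share of Mo-DCs turned to 3.77 percentage points at a limit of 5 genes, and that of all cells to 0.0821 at 3 genes, 0.244 at 5 genes and 0.0493 at equal depth.

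Leaving out 1 heart at a time gave 2 to 14 called genes in Mo-DCs, 0 to 19 in monocytes and 0 to 13 in macrophages. Medians of the members ran from -1.388 to 0.312 in Mo-DCs, -1.958 to 0.181 in macrophages, 0.089 to 1.177 in monocytes and -0.499 to 0.212 over all cells. In Mo-DCs the ranges were -3.659 to -0.577 (*S100a8*), -2.371 to 0.465 (*S100a9*), -2.263 to 0.159 (*Retnlg*), -2.276 to 0.192 (*Cxcr2*), -0.029 to 1.585 (*Il1r2*), -2.025 to 1.157 (*Mmp9*) and -1.769 to 1.512 (*G0s2*). Over all cells they were -2.249 to 0.175 (*S100a9*), -0.283 to 0.052 (*Cxcr2*), -0.026 to 0.67 (*Il1r2*), -0.465 to 0.328 (*Mmp9*) and -0.555 to 0.908 (*G0s2*). In monocytes *Csf3r* ran from -0.124 to 1.942 and *Il1r2* from -0.472 to 0.089. In macrophages *S100a8* ran from -3.14 to 0.181, *S100a9* from -2.801 to 0.455 and *Mmp9* from -0.254 to 0.156. The difference between types for *Csf3r* ran from -1.407 to 0.327. The difference in the share of Mo-DCs with at least 4 of the genes ran from -16.6 to 1.92 percentage points, -16.6 being without heart 6 (exact permutation p = 0.1), and that of all cells from -0.561 to 0.322.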
